A study of Mus musculus with 4 samples.

Results

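The genes described here are 50 interferon-stimulated genes, the antiviral effectors, nucleic acid sensors and transcription factors that interferon switches on. They were picked by symbol from a table of 55356 mouse genes, all 50 were found, and they were arranged in 10 classes by what their products do. The RNA came from macrophages that had been grown from the bone marrow of *MK2*-KO mice and immortalized. They lack the kinase MK2 encoded by *Mapkapk2*. The cells had been transduced with the retroviral vector pMMP-IRES-GFP, either empty (i*MK2*-KO +*GFP*) or carrying MK2 (i*MK2*-KO +*MK2*), and sorted for GFP. Each line was left untreated (UT) or given IL-1α at 5 ng/mL for 1 h. The 4 libraries are 1 for each of these conditions. The *MK2* deletion, the immortalization and the vector are shared by all libraries, and the sample labels call the +*MK2* cells wild type although their MK2 comes from the vector. Each genotype is 1 transduced line, so an effect of MK2 and any other divergence of the lines cannot be told apart. With 1 library per condition the spread between cultures is not known, and no test was made.

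Type I and type III interferons bind receptors that carry the kinases JAK1 and TYK2. Signaling from these kinases leads to the complex ISGF3, which includes STAT2 and IRF9. ISGF3 enters the nucleus and binds the interferon-stimulated response element (ISRE), a repeat of GAAA blocks in the promoters of many antiviral genes. Interferon-γ acts mainly on a different element, the GAS element. Macrophages often keep a low level of this programme running through small amounts of interferon-β they make themselves.

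The promoters of the genes were read first, because the ISRE is what groups them in textbooks. A RefSeq table for GRCm38.p6 holds windows from 250 bases before to 50 bases after each annotated start, and 40 of the 50 genes were in it. The motif searched was GAAA, any 2 bases and GAAA again, on both strands, so that a site on the opposite strand reads TTTC, 2 bases and TTTC. It was found for 20 of the 40 genes, or 50%, against 3.99% of 27025 genes in the whole table. The GAS letters, TTC, any 3 bases and GAA, were found for 11 of the 40 (27.5%, against 9.55% of all genes). The κB letters, GGGA, any 2 bases and TTCC, were found for 4 (10%, against 1.63%). A match is a description of letters and not a binding site. The windows below, not all of those found, are from the genes with the letters and enough signal that were past 2-fold between the lines in either comparison, with *Oas1a* and *Ifit3* added as near copies of *Oas1g* and *Ifit3b*, and *Isg15*, *Bst2* and *Stat2* as well-known members within 2-fold. Capitals mark the matched 10 letters, and each window is written 5′ to 3′ in the direction of its gene.
*Ifitm3*, chr7:141010723-141010752, minus strand: caaaattcagGAAAAGGAAActtctgagaa
*Ifitm3*, chr7:141010706-141010735, minus strand: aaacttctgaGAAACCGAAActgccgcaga
*Oas3*, chr5:120777715-120777744, minus strand: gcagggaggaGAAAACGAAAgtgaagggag
*Oas1g*, chr5:120887612-120887641, minus strand: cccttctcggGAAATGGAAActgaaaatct
*Oas1a*, chr5:120907526-120907555, minus strand: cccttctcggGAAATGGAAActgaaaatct
*Ifi203*, chr1:173942508-173942537, minus strand: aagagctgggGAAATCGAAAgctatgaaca
*Ifit1*, chr19:34640775-34640804, plus strand: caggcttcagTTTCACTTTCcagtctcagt
*Ifit3*, chr19:34583363-34583392, plus strand: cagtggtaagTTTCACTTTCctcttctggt
*Ifit3b*, chr19:34607759-34607788, plus strand: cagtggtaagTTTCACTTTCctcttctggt
*Gbp7*, chr3:142530273-142530302, plus strand: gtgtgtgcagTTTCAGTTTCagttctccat
*Trim30a*, chr7:104465210-104465239, minus strand: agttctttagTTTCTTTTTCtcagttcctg
*Isg15*, chr4:156200877-156200906, minus strand: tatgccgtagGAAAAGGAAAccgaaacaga
*Bst2*, chr8:71537583-71537612, minus strand: ggcattccagGAAAATGAAActgaaaggct
*Stat2*, chr10:128270266-128270295, plus strand: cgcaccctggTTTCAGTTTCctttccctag

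The window of *Oas1a* was identical to that of *Oas1g*, and the window of *Ifit3* to that of *Ifit3b*, letter for letter. The sites of *Ifitm3* lay just inside the annotated transcript and those of the other genes shown lay before their starts. Both genes that were higher in +*GFP* cells (*Ifitm3*, *Oas3*) and genes that were lower (*Gbp7*, *Trim30a*) carried the letters. Among the genes with enough signal to be compared, the 19 with the letters had a median log2 ratio of +*GFP* over +*MK2* cells of 0.09 untreated and 0.12 after IL-1α. The 18 without them had medians of 0.17 and 0.04. The range with the letters ran from -3.53 to 3.33 untreated and was wider than the range from -0.58 to 1.13 without them.

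Values below are normalized read counts from the authors, rounded to whole numbers, and pairs of values give the untreated library first. They are not corrected for gene length, so they compare libraries and not genes. Ratios are log2 ratios after adding 1 to each value, and the range in parentheses after a ratio is a 95% exact counting interval. It takes 1 unit of value as 1 read and covers counting error only, not the spread between cultures. The values of a library summed to between 24891906 and 25733071, and 17840 to 18152 genes were above 0. *Mapkapk2* was at 561 and 1585 in +*GFP* cells and at 38357 and 38141 in +*MK2* cells, which fits the labels. All 10 macrophage markers were present, with sums between 116714 and 131442, and the 5 fibroblast markers were at 0 in each library. Some macrophage markers differed between the lines. *C1qa* was at 86 and 125 in +*GFP* and 334 and 317 in +*MK2* cells, *Mertk* at 421 and 364 against 1093 and 1168, and *Cd14* at 3652 and 8072 against 1962 and 2250. *Adgre1* and *Fcgr1* were 1.72-fold lower in untreated +*GFP* cells. The 5 dendritic cell markers summed to 23 and 21 in +*GFP* and 106 and 116 in +*MK2* cells. *Zbtb46* alone was above 3, and *Flt3*, *Siglech* and *Ccr7* were at 0. The neutrophil markers summed to between 5 and 8, and the lymphocyte markers to between 2 and 15.

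Of the 50 genes, 44 had a mean of at least 10 over the 4 libraries, as did 12483 genes in all. The 6 below this mean were near or at the detection limit. *Cmpk2*, a mitochondrial nucleotide kinase, was at 0 in every library. *Zbp1*, a sensor of Z-form nucleic acids, was at 0 in 3 libraries and at 1 in IL-1α-treated +*MK2* cells. *Ifih1*, which encodes the RNA sensor MDA5, was at 2 and 2 in +*GFP* cells and at 0 and 0 in +*MK2* cells. *Mx1*, a dynamin-like antiviral GTPase, was at 5 and 2 in +*GFP* and 3 and 2 in +*MK2* cells. *Mx2* was at 3 and 6 in +*GFP* and at 2 and 13 in +*MK2* cells, a log2 ratio of 2.22 (0.56 to 5.89) after IL-1α in the latter. *Ifi44* was at 6 and 2 in +*GFP* and at 6 and 21 in +*MK2* cells, a log2 ratio of 1.65 (0.45 to 3.41) after IL-1α in the latter. For both genes the single high library was the treated +*MK2* one, with few reads behind it.

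**Figure D1:**
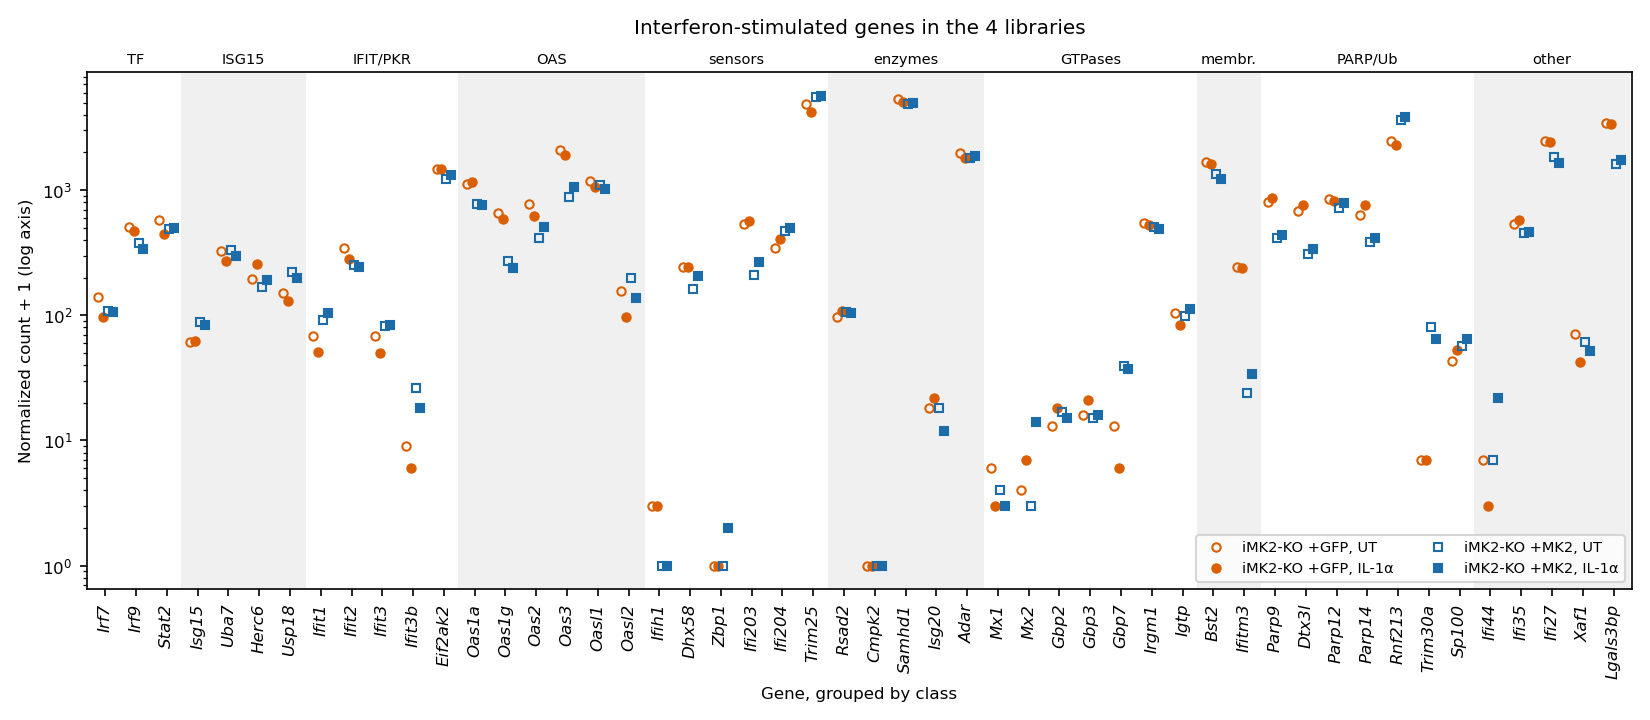
Normalized count plus 1 (log axis) of each of the 50 genes in each of the 4 libraries, grouped by class. Orange circles are i*MK2*-KO +*GFP* and blue squares i*MK2*-KO +*MK2* cells, open for untreated and filled for IL-1α; *Ifitm3* (240 and 236 against 23 and 33) and *Trim30a* (6 and 6 against 80 and 64) show the widest gaps between the lines.

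The lines were compared first, to see whether macrophages with and without MK2 differed in this programme before and after IL-1α. In untreated cells, 6 of the 44 genes were at least 2-fold higher in +*GFP* than in +*MK2* cells, which is 13.6%, against 3.51% of all genes. They were *Ifitm3*, *Ifi203*, *Oas1g*, *Oas3*, *Dtx3l* and *Lgals3bp*. In the other direction, 3 of the 44 genes were at least 2-fold lower, *Trim30a*, *Gbp7* and *Ifit3b*, which is 6.82% against 5.26%. All 3 reached a mean of 10 through their +*MK2* values, and with a minimum mean of 50 the count was 0. The median log2 ratio of the 44 genes was 0.17, against 0.02 for all genes. Of the 44, 28 were above and 15 below 0, against 6557 and 5806 of all 12483 genes. At 1.5-fold, 10 were higher, or 22.7% against 7.33% of all genes, and 3 were lower, or 6.82% against 10.3%. Beyond the counting interval, 22 of the 44 genes were higher (30.8% of all genes) and 9 were lower (26.9% of all genes).

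After IL-1α, 4 of the 44 genes were at least 2-fold higher in +*GFP* cells (*Ifitm3*, *Oas1g*, *Dtx3l* and *Ifi203*), or 9.09% against 4.16% of all genes. Another 4 were at least 2-fold lower (*Trim30a*, *Gbp7*, *Ifit3b* and *Ifit1*), or 9.09% against 5.57%. Again *Trim30a*, *Gbp7* and *Ifit3b* reached a mean of 10 through their +*MK2* values, and with a minimum mean of 50 *Ifit1* alone remained. The median log2 ratio was 0.09, against 0.03 for all genes, and with all libraries scaled to equal *Gapdh* these medians were -0.01 and -0.07. At 1.5-fold, 10 were higher, or 22.7% against 8.41%, and 7 lower, or 15.9% against 11.2%. Beyond the counting interval, 16 were higher (33.7% of all genes) and 11 lower (26.3% of all genes). Both +*GFP* libraries lay above both +*MK2* libraries for 21 of the 44 genes, or 47.7%, against 37.2% of all genes, and below them for 11, or 25%, against 31%. At least 2-fold higher in +*GFP* cells in both comparisons were 4 of the 44 genes, against 271 of all 12483 genes (2.17%). At least 2-fold lower in both were 3 of the 44 (*Trim30a*, *Gbp7* and *Ifit3b*), against 450 of all 12483 genes (3.6%).

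**Figure D2:**
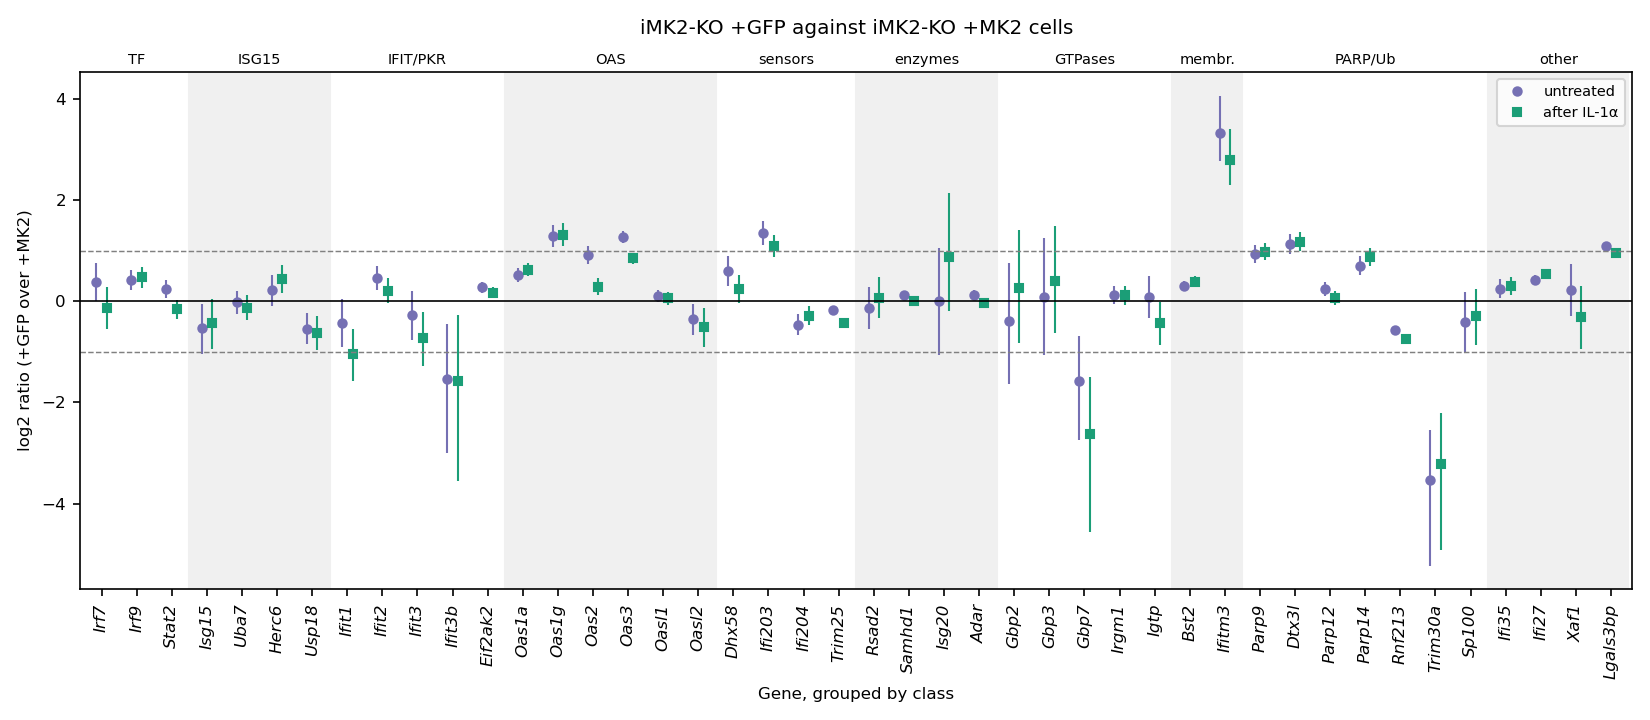
Log2 ratio of i*MK2*-KO +*GFP* over i*MK2*-KO +*MK2* cells for the 44 genes with a mean of at least 10, untreated (circles) and after IL-1α (squares), with 95% counting intervals as bars and 2-fold as dashed lines. *Ifitm3* stands at 3.33 and 2.80 and *Trim30a* at -3.53 and -3.22, and most other genes lie within 2-fold.

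Among the transcription factors, *Irf9* and *Stat2*, which encode subunits of ISGF3, were slightly higher in untreated +*GFP* cells. *Irf9*, the DNA-binding subunit, was at 507 and 469 in +*GFP* and at 379 and 338 in +*MK2* cells, with log2 ratios of 0.42 (0.22 to 0.62) untreated and 0.47 (0.27 to 0.68) after IL-1α. *Stat2* was at 575 and 444 in +*GFP* and 487 and 495 in +*MK2* cells, with ratios of 0.24 (0.06 to 0.42) and -0.16 (-0.34 to 0.03). *Irf7*, the factor that amplifies interferon-α production, was at 140 and 96 in +*GFP* and 107 and 105 in +*MK2* cells, with ratios of 0.38 (0.01 to 0.76) and -0.13 (-0.54 to 0.28). Only for *Irf9* of the 3 did both +*GFP* libraries lie above both +*MK2* libraries. *Stat2* and *Irf7* were highest in untreated +*GFP* cells and lowest in the treated cells of the same line.

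The genes of the ISG15 system, in which ISG15 is attached to proteins much as ubiquitin is, had no member at 2-fold between the lines. *Usp18*, the protease that removes ISG15 and also dampens the interferon receptor, was lower in +*GFP* cells, at 151 and 128 against 220 and 197, with log2 ratios of -0.54 (-0.85 to -0.24) and -0.62 (-0.95 to -0.29). *Isg15* itself was at 60 and 61 against 87 and 83, with ratios of -0.53 (-1.04 to -0.05) and -0.44 (-0.95 to 0.05). Both +*GFP* libraries were thus below both +*MK2* libraries for these genes, by less than 2-fold. *Uba7*, the activating enzyme of the system, was close in both lines, with ratios of -0.02 and -0.13. *Herc6*, a ligase, had ratios of 0.22 (-0.09 to 0.52) and 0.44 (0.17 to 0.72).

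The IFIT proteins, which bind foreign RNA and block its translation, split within their cluster on chromosome 19. *Ifit1* was at 67 and 50 in +*GFP* and at 90 and 104 in +*MK2* cells, with log2 ratios of -0.42 (-0.90 to 0.05) untreated and -1.04 (-1.57 to -0.56) after IL-1α. *Ifit3b* was at 8 and 5 against 25 and 17, with ratios of -1.53 (-3.00 to -0.45) and -1.58 (-3.56 to -0.27). *Ifit3* was at 67 and 49 against 81 and 82, with ratios of -0.27 (-0.76 to 0.21) and -0.73 (-1.28 to -0.21). These neighbours were lower in both +*GFP* libraries than in either +*MK2* library. *Ifit2*, from the same cluster, lay on the other side, with ratios of 0.45 (0.22 to 0.70) and 0.21 (-0.04 to 0.47). *Ifit3* and *Ifit3b* share 57.3% and 49.9% of their 38-base stretches, so reads may have been divided between them in quantification. Their sum was at 75 and 54 against 106 and 99, with ratios of -0.49 (-0.95 to -0.06) and -0.86 (-1.38 to -0.38), and so the *Ifit3b* ratio by itself is uncertain. *Eif2ak2*, the RNA-activated kinase PKR that stops translation, was more abundant and closer between the lines, with ratios of 0.27 (0.16 to 0.38) and 0.17 (0.06 to 0.27).

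In the OAS family 4 of the 6 genes were higher in untreated +*GFP* cells beyond the counting interval, against 30.8% of all genes. The same 4 were higher after IL-1α, against 33.7% of all genes in that comparison. The share of all genes higher in both comparisons was not computed. The enzymes of this family sense double-stranded RNA and make 2′-5′ oligoadenylates, which activate RNase L. *Oas3* was at 2103 and 1905 in +*GFP* and at 873 and 1058 in +*MK2* cells, with log2 ratios of 1.27 (1.15 to 1.38) untreated and 0.85 (0.74 to 0.96) after IL-1α. *Oas1g* was at 660 and 591 against 270 and 237, with ratios of 1.29 (1.08 to 1.5) and 1.31 (1.10 to 1.54). For both genes every +*GFP* library was well above every +*MK2* library. *Oas2* was at 778 and 621 against 413 and 508, with ratios of 0.91 (0.74 to 1.09) and 0.29 (0.12 to 0.46). *Oas1a* was at 1121 and 1170 against 780 and 757, with ratios of 0.52 (0.39 to 0.66) and 0.63 (0.50 to 0.76). These 4 genes are neighbours on chromosome 5. *Oas1a* shares 64.4% of its 38-base stretches with *Oas1g* and *Oas1g* 51% with *Oas1a*. The sum of the pair was at 1781 and 1761 against 1050 and 994, with ratios of 0.76 (0.65 to 0.87) and 0.82 (0.71 to 0.94), so that the pair was higher in +*GFP* cells even where the single values are uncertain.

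The OAS-like genes lie at a different place on chromosome 5 and did not share this difference. *Oasl1*, whose product restrains translation of *Irf7* mRNA, was at 1178 and 1064 in +*GFP* and at 1091 and 1022 in +*MK2* cells, with log2 ratios of 0.11 (-0.01 to 0.23) and 0.06 (-0.07 to 0.18). *Oasl2* was at 155 and 95 against 199 and 136, with ratios of -0.36 (-0.67 to -0.05) and -0.51 (-0.91 to -0.13). The class median was 0.72 untreated and 0.46 after IL-1α.

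Among the sensors and their regulators, the neighbouring genes *Ifi203* and *Ifi204*, which encode DNA-binding proteins of the PYHIN family, lay on opposite sides. *Ifi203* was at 532 and 564 in +*GFP* and at 209 and 265 in +*MK2* cells, with log2 ratios of 1.34 (1.11 to 1.59) and 1.09 (0.88 to 1.31). *Ifi204* was at 344 and 407 against 474 and 496, with ratios of -0.46 (-0.67 to -0.26) and -0.28 (-0.48 to -0.09). Both have close relatives in the cluster, with 17.6% and 27.5% of their 38-base stretches found in other genes. *Dhx58*, which encodes the RIG-I-like receptor LGP2, was at 244 and 242 against 161 and 205, with ratios of 0.60 (0.31 to 0.90) and 0.24 (-0.04 to 0.51). *Trim25*, the ubiquitin ligase that acts on RIG-I, was the most abundant of the class and slightly lower in +*GFP* cells, with ratios of -0.18 (-0.24 to -0.13) and -0.44 (-0.49 to -0.38).

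The nucleotide and RNA enzymes hardly differed between the lines. *Samhd1*, which depletes deoxynucleotides, had log2 ratios of 0.13 and 0.01, and *Adar*, the RNA-editing adenosine deaminase, 0.13 and -0.04. *Rsad2*, which encodes viperin, had ratios of -0.13 and 0.07, both with intervals that hold 0. *Isg20*, an RNA exonuclease, was at 17 and 21 in +*GFP* and at 17 and 11 in +*MK2* cells, with ratios of 0.00 (-1.06 to 1.06) and 0.87 (-0.18 to 2.13). At these counts a difference in *Isg20* was not detectable.

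The interferon-inducible GTPases, which act on the membranes of vacuoles that hold pathogens, had 1 gene at 2-fold. *Gbp7* was at 12 and 5 in +*GFP* and at 38 and 36 in +*MK2* cells, with log2 ratios of -1.58 (-2.73 to -0.70) untreated and -2.62 (-4.55 to -1.49) after IL-1α. Its neighbours *Gbp2* and *Gbp3* did not differ beyond counting error, with values between 12 and 20 in every library. *Irgm1* had a ratio of 0.12 in both comparisons. *Igtp* had ratios of 0.08 (-0.33 to 0.50) and -0.43 (-0.86 to -0.01).

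The membrane restriction factors held the largest gap on the +*GFP* side among the 44 genes. *Ifitm3*, which blocks fusion of viruses in endosomes, was at 240 and 236 in +*GFP* and at 23 and 33 in +*MK2* cells. This was 10.0-fold higher untreated and 6.97-fold higher after IL-1α, with log2 ratios of 3.33 (2.76 to 4.07) and 2.80 (2.31 to 3.41). Of the 38-base stretches of *Ifitm3*, 15.8% were found in other genes. Its neighbour *Ifitm2*, at 2035 and 2063 against 2566 and 2593, was lower in +*GFP* cells by 0.33 on the log2 scale in both comparisons, and *Ifitm1* was at 1 in every library. *Bst2*, which encodes tetherin, a protein that holds budding virions at the cell surface, was at 1673 and 1612 against 1355 and 1236, with ratios of 0.30 (0.20 to 0.41) and 0.38 (0.28 to 0.49).

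The class of PARP, ubiquitin and nuclear body proteins held genes on either side. *Parp9* and *Dtx3l*, whose products form a complex that ubiquitinates histones and antiviral targets, start on opposite strands of chromosome 16 and overlap by 682 bases in the deposited table. *Dtx3l* was at 676 and 759 in +*GFP* and at 309 and 336 in +*MK2* cells, with log2 ratios of 1.13 (0.93 to 1.33) and 1.17 (0.99 to 1.37). *Parp9* was at 797 and 865 against 417 and 438, with ratios of 0.93 (0.76 to 1.11) and 0.98 (0.81 to 1.15). *Parp14*, next to them, was at 629 and 758 against 385 and 414, with ratios of 0.71 (0.52 to 0.89) and 0.87 (0.70 to 1.05). The 3 neighbours were higher in +*GFP* cells by similar amounts at both times. *Parp12*, on another chromosome, had ratios of 0.24 (0.10 to 0.39) and 0.07 (-0.07 to 0.21).

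*Trim30a*, a ubiquitin ligase that limits Toll-like receptor signaling, had the largest gap of all 44 genes. It was at 6 and 6 in +*GFP* and at 80 and 64 in +*MK2* cells, or 11.6-fold and 9.29-fold lower in the former, with log2 ratios of -3.53 (-5.23 to -2.55) and -3.22 (-4.91 to -2.21). In bulk RNA, fewer cells that express such a gene and less RNA in each cell cannot be told apart. *Rnf213*, a giant ubiquitin ligase, was at 2454 and 2306 against 3657 and 3863, with ratios of -0.58 (-0.65 to -0.50) and -0.74 (-0.82 to -0.67). *Sp100*, a nuclear body protein, had ratios of -0.41 (-1.03 to 0.19) and -0.29 (-0.86 to 0.25). All 3 lay below in both +*GFP* libraries, *Sp100* within counting error. The macrophage markers *C1qa*, *Mertk*, *Adgre1* and *Fcgr1* were also lower in +*GFP* cells. So was the dendritic cell marker *Zbtb46*, at 23 and 18 against 104 and 115. *Itgam* and *Cd68* were slightly lower and *Lyz2* was close. *Cd14*, *Csf1r* (23227 and 27561 against 20290 and 21305) and *Spi1* (4782 and 5524 against 4551 and 4663) were higher. The part of these markers in the differences between the lines was not tested.

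Of the other effectors, *Lgals3bp*, which encodes a secreted galectin-binding glycoprotein, was at 3426 and 3382 in +*GFP* and at 1614 and 1740 in +*MK2* cells, with log2 ratios of 1.09 (1.00 to 1.17) and 0.96 (0.87 to 1.04). *Ifi27* and *Ifi35* were also higher in both +*GFP* libraries, with ratios of 0.43 and 0.54 for *Ifi27* and of 0.25 and 0.31 for *Ifi35*. *Xaf1*, an antagonist of the apoptosis inhibitor XIAP, was at 70 and 41 against 60 and 51, with ratios of 0.22 (-0.30 to 0.74) and -0.31 (-0.94 to 0.31). Its line difference was within counting error.

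The response to 1 h of IL-1α was compared next, within each line. It was small for these genes. In +*GFP* cells, 0 of the 44 genes were at least 2-fold higher after IL-1α, against 2.25% of all genes, and 1 was at least 2-fold lower (*Gbp7*), against 1.59%. In +*MK2* cells, 0 were at least 2-fold higher (0.889% of all genes) and 0 at least 2-fold lower (1.03%). At 1.5-fold, 0 genes were higher in +*GFP* cells (4.7% of all genes) and 4 were lower (4.29%), and in +*MK2* cells 0 were higher (2.72%) and 1 was lower (2.92%). The median log2 ratio of IL-1α over untreated was -0.05 in +*GFP* cells, against 0.01 for all genes. Of the 44, 14 were above and 29 below 0, against 6710 and 5554 of all 12483 genes. In +*MK2* cells the median was 0.02, against 0.01 for all genes. There 24 were above and 20 below 0, against 6614 and 5638 of all 12483 genes. Each of these responses shares its libraries with the comparisons of the lines.

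**Figure D3:**
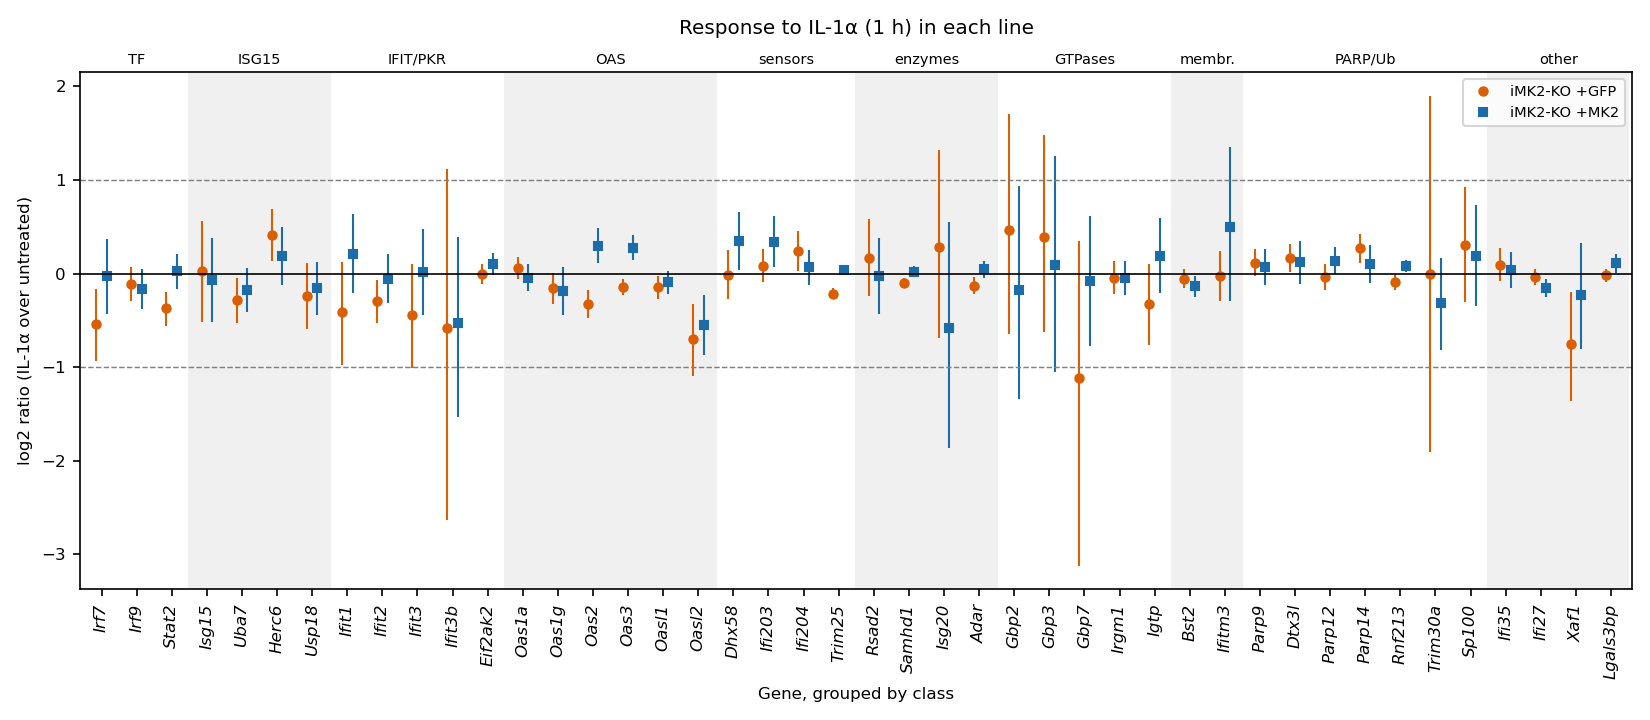
Log2 ratio of IL-1α over untreated for the 44 genes, in i*MK2*-KO +*GFP* (circles) and i*MK2*-KO +*MK2* cells (squares), with 95% counting intervals as bars and 2-fold as dashed lines. *Gbp7* in +*GFP* cells, at -1.12 with an interval that holds 0, is the single value past 2-fold.

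Genes below their untreated value beyond the counting interval numbered 13 of 44 in +*GFP* cells, or 29.5% against 12.3% of all genes, and 4 were above it, or 9.09% against 20%. The 13 were *Irf7*, *Stat2*, *Uba7*, *Ifit2*, *Oas2*, *Oas3*, *Oasl1*, *Oasl2*, *Trim25*, *Samhd1*, *Adar*, *Rnf213* and *Xaf1*, and the 4 were *Herc6*, *Ifi204*, *Dtx3l* and *Parp14*. In +*MK2* cells 3 were lower (8.23% of all genes) and 6 higher (11.4%). The 3 were *Oasl2*, *Bst2* and *Ifi27*, and the 6 were *Oas2*, *Oas3*, *Dhx58*, *Ifi203*, *Rnf213* and *Lgals3bp*.

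The transcription factors were all lower after IL-1α in +*GFP* cells, where 5554 of all 12483 genes were below their untreated value. The log2 ratio was -0.54 (-0.93 to -0.16) for *Irf7*, -0.37 (-0.55 to -0.19) for *Stat2* and -0.11 (-0.30 to 0.07) for *Irf9*. In +*MK2* cells the same genes were at -0.03 (-0.43 to 0.37), 0.02 (-0.16 to 0.21) and -0.16 (-0.38 to 0.05), all with intervals that hold 0. In the IFIT and PKR class all 5 genes were at or below their untreated value in +*GFP* cells, with a median of -0.42. *Ifit2* alone was beyond counting error, at -0.30 (-0.53 to -0.07). *Eif2ak2* was nearly unchanged, at -0.004 (-0.11 to 0.10), and *Ifit3* and *Ifit3b* are not separate counts because they share sequence.

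Within the OAS family, *Oasl2* was lower after IL-1α in both lines, with log2 ratios of -0.70 (-1.09 to -0.33) in +*GFP* and -0.55 (-0.87 to -0.23) in +*MK2* cells. *Xaf1* had ratios of -0.76 (-1.36 to -0.20) and -0.23 (-0.80 to 0.33). *Oasl2* was the single gene of the 44 that lay below its untreated value beyond the counting interval in both lines. The other genes past 1.5-fold had few reads. *Ifit3b* stood at -0.58 (-2.64 to 1.12) and *Gbp7* at -1.12 (-3.12 to 0.35) in +*GFP* cells, and *Isg20* at -0.58 (-1.87 to 0.55) in +*MK2* cells, all within counting error. On the upper side in +*GFP* cells, *Herc6* had a ratio of 0.41 (0.14 to 0.69), from 194 to 258, and *Parp14* one of 0.27 (0.11 to 0.42).

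**Figure D4:**
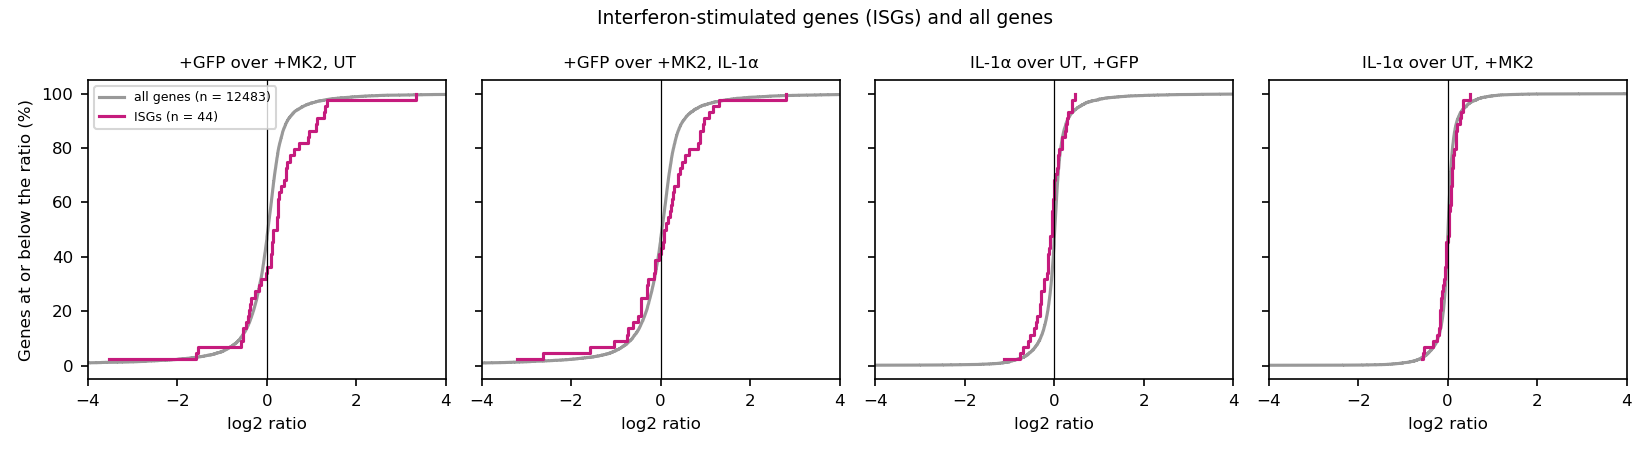
Share of genes (%) at or below each log2 ratio in the 4 comparisons, for the 44 interferon-stimulated genes (magenta) and the 12483 genes with a mean of at least 10 (grey). Between the untreated lines the upper part of the magenta curve lies to the right of the grey one (medians 0.17 and 0.02), and for the response to IL-1α in +*GFP* cells the magenta curve lies to the left in its lower part (lower quartiles -0.29 and -0.10).

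The rest of the pathway was read from a list of 101 further genes, 62 of which had a mean of at least 10. None of the 21 interferon ligand genes was above 3 in any library. *Ifnb1*, the interferon-β gene, was at 0 in 3 libraries and at 3 in IL-1α-treated +*GFP* cells, and 19 of the 21 were at 0 throughout. The receptor chains were present. *Ifnar1* was at 1583 and 1711 in +*GFP* and at 1533 and 1261 in +*MK2* cells, and *Ifnar2* at 1173 and 1236 against 1170 and 1134. The interferon-γ receptor chain *Ifngr2* was at 1936 and 2863 against 1989 and 1762, and *Ifngr1* at 707 and 1084 against 731 and 803. The highest value of each *Ifnar* and each *Ifngr* gene was in treated +*GFP* cells. *Il10rb*, a chain of the type III receptor, was at 1749 and 1870 against 2179 and 2130, while *Ifnlr1*, the chain particular to that receptor, was at 8 and 9 against 14 and 11.

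Of the receptor kinases, *Jak1* was at 4264 and 4214 in +*GFP* and at 3761 and 3843 in +*MK2* cells, *Tyk2* at 1277 and 1479 against 874 and 917, and *Jak2* at 935 and 937 against 474 and 509. For all 3, both +*GFP* libraries lay above both +*MK2* libraries, as they did for 37.2% of all genes. Untreated, 4 of the 62 genes were at least 2-fold higher in +*GFP* cells, or 6.45% against 3.51% of all genes, and 4 at least 2-fold lower, or 6.45% against 5.26%. After IL-1α, 8 were at least 2-fold higher, or 12.9% against 4.16%, and 3 lower, or 4.84% against 5.57%. *Socs1* (3 and 3 against 18 and 16) and *Gbp9* (1 and 2 against 25 and 27) were among the lower genes in both comparisons. They reached a mean of 10 through their +*MK2* values. *Sp110*, among the higher genes in both comparisons, reached it through its +*GFP* values. These shares therefore depend in part on the minimum.

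A few genes of this wider list had larger ratios after IL-1α than any of the 44. In +*GFP* cells 5 of the 62 were at least 2-fold higher after IL-1α, or 8.06% against 2.25% of all genes, and 0 were at least 2-fold lower, against 1.59%. *Irf1*, a transcription factor that NF-κB as well as interferon-γ switches on, was at 324 and 1885 in +*GFP* and at 343 and 338 in +*MK2* cells, with log2 ratios of IL-1α over untreated of 2.54 (2.37 to 2.72) and -0.02 (-0.24 to 0.20). *Socs3*, a feedback inhibitor of cytokine receptors, was at 110 and 1167 against 182 and 185, with ratios of 3.40 (3.12 to 3.70) and 0.02 (-0.28 to 0.33). *Cxcl10*, a chemokine for T cells, was at 58 and 522 against 104 and 136, with ratios of 3.15 (2.78 to 3.59) and 0.38 (0.01 to 0.77). For all 3 the treated +*GFP* library stood far above the other libraries. The other 2 were *Slfn2*, a Schlafen family gene, at 1563 and 5667 against 951 and 1151, and *Ikbke*, which encodes the kinase IKKε, at 501 and 1883 against 696 and 749.

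Other genes of the wider list were named for their difference between the lines. *Ddx58*, which encodes the RNA sensor RIG-I, was at 340 and 419 in +*GFP* and at 61 and 91 in +*MK2* cells, with log2 ratios of +*GFP* over +*MK2* of 2.46 (2.08 to 2.90) and 2.19 (1.87 to 2.55). *Sp110*, a relative of *Sp100*, was at 66 and 74 against 2 and 5, with ratios of 4.48 (3.13 to 8.12) and 3.64 (2.60 to 5.55). *Slfn8* was at 69 and 77 against 12 and 20. These 3 were higher in both +*GFP* libraries. *Tlr3*, the endosomal receptor for double-stranded RNA, was lower, at 56 and 51 against 160 and 183, with ratios of -1.5 (-1.98 to -1.07) and -1.82 (-2.32 to -1.39). *Ccl5*, a chemokine gene, was at 34 and 55 against 71 and 75, with ratios of -1.04 (-1.70 to -0.45) and -0.44 (-0.98 to 0.07). *Oas1c*, inside the OAS cluster, was at 148 and 87 against 50 and 58, so that its ratio was 1.55 (1.09 to 2.06) untreated and 0.58 (0.09 to 1.09) after IL-1α.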

How the data were processed

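The authors deposited 1 table that holds, for every gene in every library, a whole-number score. The processing notes deposited with the samples name DESeq2, and the score is taken here as a count the authors normalized with it. The headers carry the suffix of a salmon output file. The processing notes name GRCm38, but 2.87% of 52080 gene IDs had the positions of GENCODE M21, so the build of the table is not given in the sources used here and its positions are not printed. Library preparation is described differently in the labels (poly(A) selection) and in the study's methods (ribosomal depletion). Because the table holds normalized values and not counts, no count model was applied. Values were used as deposited, without further normalization. Ratios used a pseudocount of 1, counts of genes a minimum mean of 10, and intervals were exact Clopper-Pearson. Read depth is not known exactly.

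The members, classes, lists and tests were chosen with earlier results of these data known. Values in all 4 libraries were given for members past 2-fold between the lines or past 1.5-fold after IL-1α and for the transcription factors, and of the wider list for genes past 2-fold with a value of at least 50 and the receptors. A further gene that the rule names is not reported here. Other genes given with all values were added after their values were seen. Alternatives covered scaling, pseudocount, minimum, fold, paralog sums and reads per unit. Shared stretches are windows of 38 bases, the read length in the labels, over GENCODE M21 transcripts. The study's methods give longer single reads. Which length applies is not settled, and longer windows were not searched. Promoter sequences are RefSeq's for GRCm38.p6. Scripts, tested on simulated data, used Python 3.11.15, NumPy 2.4.6, pandas 2.3.3, SciPy 1.17.1 and matplotlib 3.10.9.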

Additional observations from a re-analysis of the deposited data

Results flagged for a closer look

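For 3 of the genes the response to IL-1α ran in opposite directions in the 2 lines, each beyond its own counting interval. The share of all genes that met this rule was not computed, so whether 3 is many or few is not known. *Oas2* had a log2 ratio of IL-1α over untreated of -0.32 in the +*GFP* line and 0.30 in the +*MK2* line. *Oas3*, its neighbour, was at -0.14 and 0.28, and *Rnf213* at -0.090 and 0.079. The difference between the lines was not tested, since each condition has 1 library. With 1 unit of value taken as 0.5 reads, *Oas2* and *Oas3* remained beyond the interval in both lines and *Rnf213* in neither.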

How the results depend on the processing

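No paired analysis was possible because each condition has 1 library and the labels give no replicate numbers, and for the same reason no replicate could be left out. Of 200 values of summary results under an alternative, 183 stayed within a limit and 17 moved further. For counts the limit was 1.5 times. For medians it was the median of the single genes' interval limits, which is the counting error of a gene and not of a median. The sign change of a median under equal *Gapdh*, given below, was therefore among the 183. Counts of members moved mainly with the minimum and the fold. With no minimum, 7 genes were at least 2-fold lower in +*GFP* cells after IL-1α, 3 were lower after IL-1α in +*GFP* cells and 3 higher after IL-1α in +*MK2* cells. With a minimum of 50, the counts of genes lower in +*GFP* cells were 0 untreated and 1 after IL-1α, and 0 were lower after IL-1α within +*GFP* cells, as also with a pseudocount of 5. At 1.5-fold, 10 genes were higher in +*GFP* cells untreated and 10 after IL-1α, and 7 were lower after IL-1α. The genes in the higher counts were not all the same. *Oas2* and *Dhx58* passed only untreated, and *Oas1a* and *Isg20* only after IL-1α, *Isg20* within counting error. Within +*GFP* and +*MK2* cells, 4 and 1 were lower after IL-1α. Beyond the counting interval, the genes higher after IL-1α in +*GFP* cells numbered 2 with equal library totals, with equal *Gapdh* and with 1 unit taken as 0.5 reads. With 0.5 reads per unit, 6 were lower in +*GFP* cells and 2 higher in +*MK2* cells. Equal *Gapdh* moved the median log2 ratio of all genes between the treated lines from 0.03 to -0.07 and that of the 44 genes from 0.09 to -0.01. The other medians of the 44 genes kept their sign under every alternative. Values of a few reads, such as those of *Gbp7*, *Ifit3b* and *Isg20*, are limited by depth.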
